A study of Mus musculus with 8 samples.

Results

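HOX transcription factors and their cofactors of the MEIS and PBX families were examined in mouse hematopoietic stem cells (HSCs) with and without Mitol. The members were Hoxa5, Hoxa7, Hoxa9, Hoxa10, Hoxb3, Hoxb4, Hoxb5, Meis1 and Pbx3, taken by gene symbol from the count table. All 9 were found among its 22065 genes with a symbol, and all 9 passed the expression filter that left 16444 genes for testing. Bulk RNA-seq covered 8 libraries of 100 sorted bone marrow cells, of which 4 were Mitol Δ/Δ and 4 were control. The cells were lineage-negative, CD150+, CD48- and EPCR+, and came from C57BL/6 mice aged 8 to 10 weeks. The paper's definition of long-term HSCs by these markers also requires c-Kit, the protein that Kit encodes. Mitol Δ/Δ mice were Mitol Flox/Flox; MX1-cre+ animals, and controls were Mitol Flox/Flox; MX1-cre- littermates. Both groups carried the floxed alleles, and both received Poly:IC, a double-stranded RNA mimic that induces interferon and so switches on MX1-cre. HSCs were taken 1 week after Poly:IC. MX1-cre acts throughout the hematopoietic lineage and in other interferon-responsive cells, so the deletion was not limited to HSCs. The control animals carried no cre, so effects of cre and of the deletion cannot be told apart in this design. No label states whether each library came from a different mouse, and p-values measure the spread between these libraries.

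HOX genes lie in 4 clusters and encode homeodomain transcription factors that pattern the embryo. Blood stem cells use mainly genes of the HOXA and HOXB clusters, which are high in stem cells and early progenitors and are switched down as cells mature. HOX proteins bind DNA with TALE homeodomain partners, the PBX and MEIS families, and proteins of the MLL and Polycomb groups keep the clusters active or silent.

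Counts on named genes summed to between 7214935 and 12398138 per library. Marchf5, the gene that encodes MITOL, had 274 ± 31.8 normalized counts in the Mitol Δ/Δ group against 302 ± 29.9 in the control group (SD, n = 4), a log2 fold change of -0.15 (edgeR, adjusted p = 0.498). Gene counts thus did not separate the groups at the targeted gene, and they cannot tell deleted exons from remaining ones. All 13 HSC markers in the list were detected, of which 3 (Kit, Hlf and Gata2) were lower in Mitol Δ/Δ HSCs and 0 were higher (edgeR). Of all genes tested, edgeR called 8.43%. DESeq2 called 6 of the HSC markers, against 13.9% of all genes. Those that only DESeq2 called were higher, namely Slamf1 (DESeq2, log2 fold change 0.57, adjusted p = 0.0117), Ly6a (0.77, 0.0107) and Esam (0.37, 0.0267). Slamf1 had an edgeR adjusted p of 0.0501. Of 15 proliferation genes, 13 were higher, and their summed level ran from 10157 to 21896 in Mitol Δ/Δ and from 6543 to 9552 in control libraries. Summed red cell markers ran from 244 to 964 and from 231 to 309 in the same order. Of the tested markers of neutrophils (2), B cells (1), T cells (2), mast cells and basophils (1) and red cells (3), edgeR called 0. Unadjusted p was under 0.05 for Prtn3, Klf1 and Epor, and of these genes DESeq2 called Prtn3. With the replicate number as a block, edgeR called Klf1 higher (log2 fold change 2.54, adjusted p = 0.00635). Of 4 tested megakaryocyte markers edgeR called 1, Pf4, which was lower. Of 4 tested stromal and endothelial markers it called 1, and of 4 tested progenitor genes 1, namely Bgn and Cd48. The stromal gene Bgn was lower (edgeR, log2 fold change -0.80, adjusted p = 0.0335). Cd48, which the sort selected against, had 22.2 to 63.4 normalized counts in Mitol Δ/Δ libraries and 4.49 to 21.7 in control libraries (edgeR, log2 fold change 1.72, adjusted p = 0.0450). With 1 library left out, the calls of Cd48 and Bgn were kept only without Mitol Δ/Δ replicate 4 or control replicate 3 (0.0515 to 0.138 in the other fits), and that of Gata2 only without Mitol Δ/Δ replicate 4 (0.0514 to 0.0848 in the others). The part of these differences in the results on HOX genes was not tested. In bulk RNA, fewer cells that express a gene and less of its RNA per cell cannot be told apart.

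Across the 9 genes, 8 had a lower fitted level in Mitol Δ/Δ HSCs and 1, Pbx3, a higher one, where 52.3% of all genes tested were lower. Without Mitol Δ/Δ replicate 2 the counts were 5 lower and 4 higher, without Mitol Δ/Δ replicate 1 they were 6 and 3, and without control replicate 2 or 4 they were 7 and 2. Hoxa9 was the single gene past the threshold of an adjusted p under 0.05 (quasi-likelihood test in edgeR, adjusted over all genes by the Benjamini-Hochberg method). So 1 of 9 was called where 8.43% of all genes tested were called, 3.75% lower and 4.68% higher, and that share is near the background. This balance over all genes depended on scaling, with 770 genes called higher and 616 lower as reported, and 602 higher and 829 lower with library totals in edgeR. At an unadjusted p under 0.05, edgeR had 6 of 9 members, namely Hoxa7, Hoxa9, Hoxa10, Hoxb5, Meis1 and Pbx3, against 26.4% of all genes. DESeq2, which the study used, called 3 of 9, namely Hoxa7, Hoxa9 and Meis1, against 13.9% of the same 16444 genes. The Mitol Δ/Δ and control libraries did not overlap for 4 of the 9 genes, 3 of them lower and 1 higher, against 15.4% of all genes tested (7.18% lower and 8.17% higher). The median log2 fold change of the members was -0.24, and that of all genes tested was -0.020. Members that lie in one cluster share a locus, and members expressed by the same cells share their libraries, so they are not independent of each other.

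**Figure D1:**
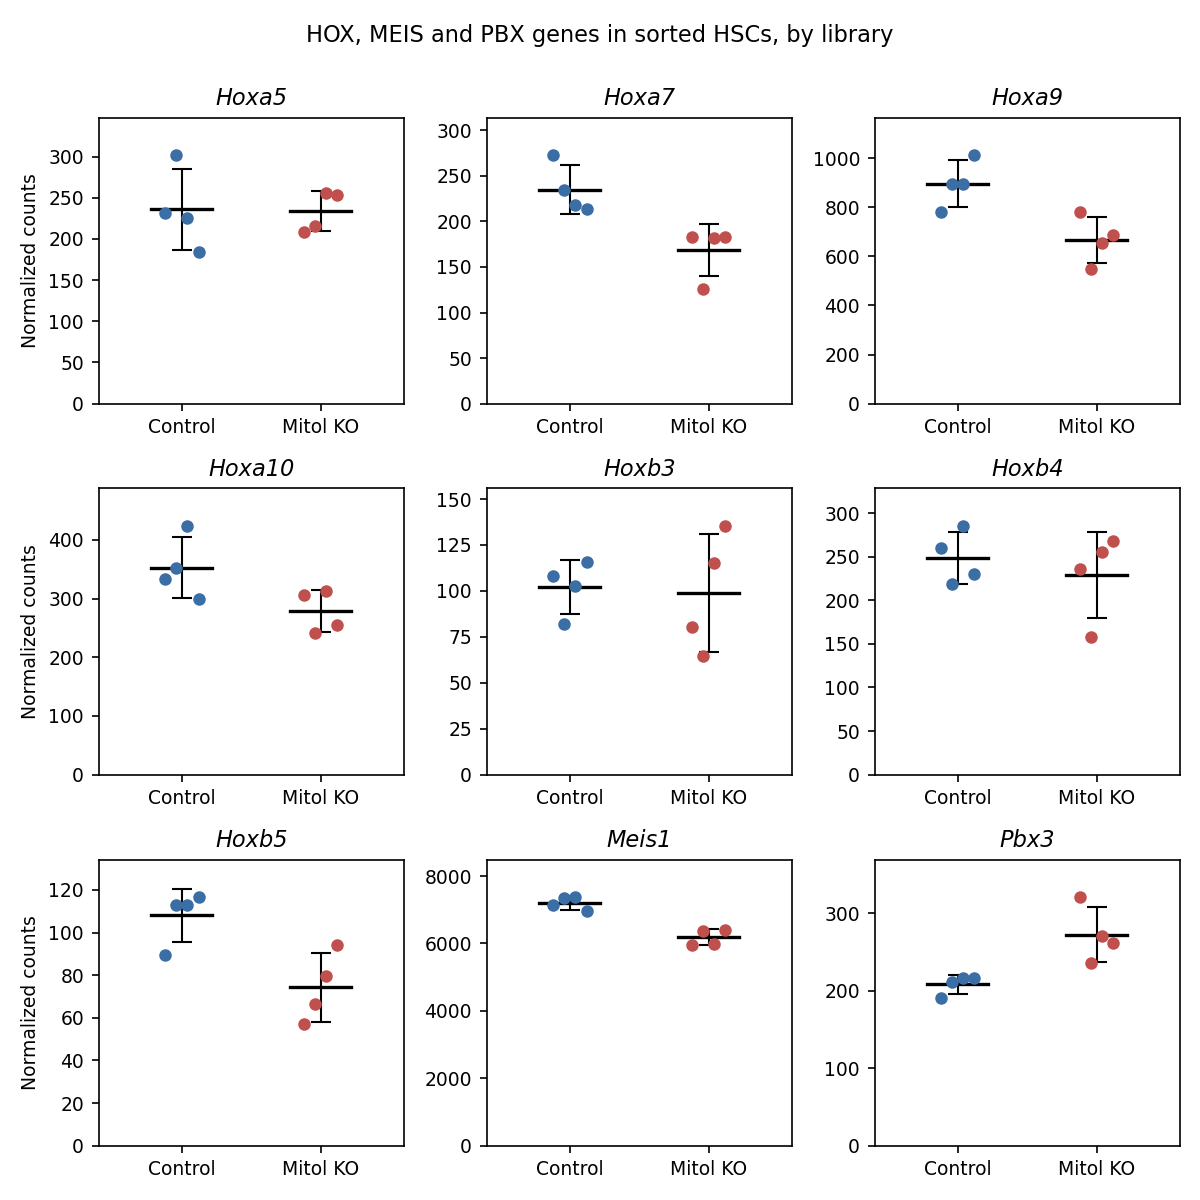
Normalized counts (counts divided by DESeq2 size factors, linear axes from 0) of the 9 genes, 1 panel a gene. Each point is a library, horizontal bars are means and whiskers are SD of 4 libraries. Hoxa7, Hoxa9 and Meis1 points of Mitol Δ/Δ HSCs (Mitol KO) all lie below the control points, Pbx3 points all lie above, and the other 5 genes overlap.

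The HOXA members were described first. Hoxa9, which supports HSC repopulation and is a driver of leukemia when overexpressed with Meis1, lies on chromosome 6 (GRCm39, chr6:52200080-52208069, minus strand). Its normalized counts in Mitol Δ/Δ replicates 1 to 4 were 779.5, 549, 655 and 687. In control replicates 1 to 4 they were 782, 894, 896 and 1014. Every Mitol Δ/Δ library lay below every control library, but Mitol Δ/Δ replicate 1 and control replicate 1 were nearly level. The means were 667 ± 95.2 and 896 ± 94.7 (SD, n = 4), a log2 fold change of -0.44 (edgeR, standard error 0.12, 95% interval -0.71 to -0.18, adjusted p = 0.0436, lower in 4 of 4 libraries). The 2-sided exact permutation test gave p = 0.0286, the smallest that 70 arrangements of 4 against 4 libraries allow. The call was lost in edgeR fits without Mitol Δ/Δ replicate 2 (adjusted p = 0.112) or 3 (0.110), and without control replicate 2 (0.100), 3 (0.0870) or 4 (0.120). It was also lost without the expression filter (0.0611). It was kept in the other 3 fits without 1 library. Over all 8 of these the log2 fold change stayed between -0.52 and -0.36.

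Hoxa7, the neighbor of Hoxa9 toward the anterior end of the cluster (chr6:52191471-52198834, minus strand), is often activated with it in leukemia. Its normalized counts were 183, 126, 181 and 183 in Mitol Δ/Δ libraries and 273, 234, 218 and 214 in control libraries. All Mitol Δ/Δ libraries were below all control libraries, with replicate 2 lowest. The log2 fold change of -0.49 (95% interval -0.85 to -0.14) did not pass the threshold with edgeR (adjusted p = 0.0784) and did with DESeq2 (adjusted p = 0.0493). The exact permutation test gave p = 0.0286. In GENCODE vM39, 20.3% of the exon bases of Hoxa7 are shared with the antisense gene Hoxaas3. The library kit does not mark strand, so reads there cannot be assigned to one of the genes.

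Hoxa10, which promotes proliferation of stem cells and progenitors, lies beside Hoxa9 at chr6:52208164-52217834. Normalized counts were 307, 242, 313 and 255 in Mitol Δ/Δ libraries and 334, 352, 424 and 299.9 in control libraries. The groups overlapped, since Mitol Δ/Δ replicates 1 and 3 were above control replicate 4. edgeR gave a log2 fold change of -0.35 (95% interval -0.66 to -0.04, adjusted p = 0.138), and DESeq2 gave an adjusted p of 0.143. The exact permutation test gave p = 0.0857. Scaled by library totals alone, in place of size factors, the groups did not overlap for Hoxa10.

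Hoxa5, which favors myeloid over erythroid fate when forced on, had groups that overlapped. Its counts at chr6:52178734-52181567 were 209, 216, 255 and 254 in Mitol Δ/Δ libraries and 232, 302, 226 and 184 in control libraries. Control replicates 2 and 4 were the highest and the lowest of all libraries. The log2 fold change was -0.03, with a 95% interval from -0.39 to 0.32 (edgeR, adjusted p = 0.927). This interval does not cover the value fitted for Hoxa9 or Hoxa7, but it overlaps the intervals of both. The difference between these genes was not tested. The exact permutation test for Hoxa5 gave p = 1.

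The upstream sequences of Hoxa9, Hoxa7 and Hoxa5 are shown because, within one cluster, the groups did not overlap for Hoxa9 and Hoxa7 and overlapped for Hoxa5. They are windows of 250 bases before the start annotated in RefSeq (table of GRCm38.p6, placed on GRCm39 by exact match). All are written 5′ to 3′ on the minus strand. The windows of Hoxa9 and Hoxa7 lie within the GENCODE spans given above for these genes. For Hoxa7 the first 107 bases are given, since an annotated exon follows. Letter patterns were searched on both strands, TGATNNAT for paired PBX and HOX proteins, TGACAG for MEIS proteins and TTTATG for HOX proteins of the posterior classes. Capitals mark matches, none of which overlapped.
Hoxa9 chr6:52204351-52204600: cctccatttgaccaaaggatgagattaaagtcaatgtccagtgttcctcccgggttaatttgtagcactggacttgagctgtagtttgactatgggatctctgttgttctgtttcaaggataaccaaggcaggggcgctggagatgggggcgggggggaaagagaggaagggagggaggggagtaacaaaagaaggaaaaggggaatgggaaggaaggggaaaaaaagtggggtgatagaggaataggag
Hoxa7 chr6:52195697-52195803: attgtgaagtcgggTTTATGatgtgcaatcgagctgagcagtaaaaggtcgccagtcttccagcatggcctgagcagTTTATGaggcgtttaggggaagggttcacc
Hoxa5 chr6:52181568-52181817: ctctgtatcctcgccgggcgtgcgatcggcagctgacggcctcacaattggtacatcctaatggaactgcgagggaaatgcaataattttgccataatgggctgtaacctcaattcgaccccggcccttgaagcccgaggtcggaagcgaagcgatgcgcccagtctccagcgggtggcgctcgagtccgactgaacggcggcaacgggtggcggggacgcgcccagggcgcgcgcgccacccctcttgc
Hoxa7 held 2 matches to TTTATG, a pattern found in 10.8% of 32851 promoter windows of this length. The windows of Hoxa9 and Hoxa5 held no match to any of the patterns, of which TGATNNAT occurs in 7.68% and TGACAG in 15.9% of all windows. The Hoxa5 window was richer in G and C (63.6%) than that of Hoxa9 (49.6%). Windows were matched for 6 of the 9 members, and those of Hoxa10, Hoxb4 and Meis1 held no match either. All 250 bases of the Meis1 window lie in annotated exon. A match of letters is no evidence of binding.

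Of the HOXB members, Hoxb5, whose expression marks the long-term repopulating fraction of HSCs, had the largest fitted difference. It lies at chr11:96194162-96196947 on the plus strand. Normalized counts were 57.1, 66.5, 79.6 and 94.2 in Mitol Δ/Δ libraries and 89.7, 113, 113 and 117 in control libraries. Of the Mitol Δ/Δ libraries 3 lay below all control libraries, and replicate 4 lay above control replicate 1. This is a log2 fold change of -0.56 (95% interval -1.02 to -0.11), which did not pass the threshold with edgeR (adjusted p = 0.112) or DESeq2 (adjusted p = 0.0865). The exact permutation test gave p = 0.0571. Raw counts were 64 to 130 per library, and in each library this gene had fewer reads than any HOXA member. With Hoxb5os, an antisense gene, it shares 9.48% of its exon bases.

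Hoxb4, which expands HSCs when overexpressed, and Hoxb3, its neighbor, had no difference past the spread between libraries. Hoxb4 (chr11:96209093-96212464) had normalized counts of 236, 158, 255 and 268 in Mitol Δ/Δ libraries and of 259.8, 219, 285 and 229.9 in control libraries. Mitol Δ/Δ replicate 2 was lowest, and the rest of the libraries of both groups were interleaved. The log2 fold change was -0.13 (edgeR, 95% interval -0.51 to 0.25, adjusted p = 0.669), and the exact permutation test gave p = 0.629. For Hoxb3 (chr11:96214152-96238756) the Mitol Δ/Δ libraries read 80.6, 64.4, 115 and 135 normalized counts and the control libraries 108, 81.9, 103 and 116. Here the Mitol Δ/Δ libraries held both the highest and the lowest value. Its log2 fold change was -0.06 (edgeR, 95% interval -0.60 to 0.47, adjusted p = 0.896), and the exact permutation test gave p = 0.714. More of Hoxb3 than of any other member is shared with an antisense gene, since 51.5% of its exon bases lie in Hoxb3os. Of the members not yet given, exon bases shared with other annotated genes made up 25.9% of Meis1 (9.11% with Gm37818 on its own strand), 19.0% of Hoxa10 and 9.35% of Hoxa9.

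Meis1, the cofactor that stabilizes HOX and PBX proteins on DNA and is needed to keep HSCs quiescent, had a small and uniform difference. It lies on chromosome 11 apart from the HOXB cluster (chr11:18829817-18969749, minus strand). Normalized counts were 5962, 6368, 5986 and 6398 in Mitol Δ/Δ libraries and 7132, 7360.1, 7383 and 6951 in control libraries. The groups did not overlap, and libraries of one group lay close together, with coefficients of variation of 3.83% and 2.84%. The means were 6178 ± 237 and 7207 ± 205 (SD, n = 4), a log2 fold change of -0.24 (standard error 0.07, 95% interval -0.39 to -0.09). It missed the threshold with edgeR (adjusted p = 0.0527). DESeq2 (adjusted p = 0.0154), limma-voom (0.0346) and edgeR with library totals alone (0.0237) called it, as did edgeR without Mitol Δ/Δ replicate 4 (0.0488). It was not called by edgeR with DESeq2 size factors (0.0707), without the expression filter (0.0865) or with the replicate number as a block (0.0953). Without any other single library the edgeR adjusted p was 0.0771 to 0.148. The exact permutation test gave p = 0.0286.

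Pbx3, a PBX partner of HOX and MEIS proteins, was the member that was higher. It lies on chromosome 2 (chr2:34061469-34263154, minus strand). Normalized counts were 321, 236, 270.0 and 261 in Mitol Δ/Δ libraries and 189.9, 211, 216 and 216 in control libraries. Every Mitol Δ/Δ library lay above every control library, with replicate 1 highest. Scaled by library totals alone, the groups overlapped. In edgeR the log2 fold change was 0.37 (95% interval 0.07 to 0.66), not past the threshold there (adjusted p = 0.109) or with DESeq2 (adjusted p = 0.0632). The exact permutation test gave p = 0.0286. These exact tests were 9 in number and were not adjusted.

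Levels of the 9 members were next compared with each other, per kilobase of annotated exon, in control HSCs. Meis1 was highest of the members, at 638 ± 18.1 normalized counts per kb (SD, n = 4). Hoxa9 followed at 161 ± 17.0, then Hoxa5 at 126 ± 26.1, Hoxa10 at 107 ± 15.8, Hoxb4 at 96.9 ± 11.7 and Hoxa7 at 81.4 ± 9.40. Neighbors in this order from Hoxa9 to Hoxa7 overlapped between libraries, so the order of neighbors is not settled. Genes further apart did not all overlap. Hoxa9 (140 to 182 per kb) lay above Hoxa10 (90.8 to 128), Hoxb4 (85.4 to 111) and Hoxa7 (74.2 to 94.8) in all libraries. Hoxa5 (98.1 to 161) likewise lay above Hoxa7. Hoxb5 at 38.8 ± 4.45, Pbx3 at 29.0 ± 1.73 and Hoxb3 at 19.9 ± 2.83 formed the lower end, each without overlap with its neighbor. In Mitol Δ/Δ HSCs, Meis1 was again highest, at 547 ± 21.0. Hoxa5 (124 ± 13.05) there stood beside Hoxa9 (120 ± 17.1), and Pbx3 (37.9 ± 4.96) stood above Hoxb5 (26.7 ± 5.78), with overlapping libraries in both cases. The union of all annotated exons was used as length, which understates genes with long rare isoforms. This length also includes bases shared with other genes, 51.5% of them for Hoxb3. How reads on shared bases were counted is not known, so the place of Hoxb3 in the order is not settled.

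**Figure D2:**
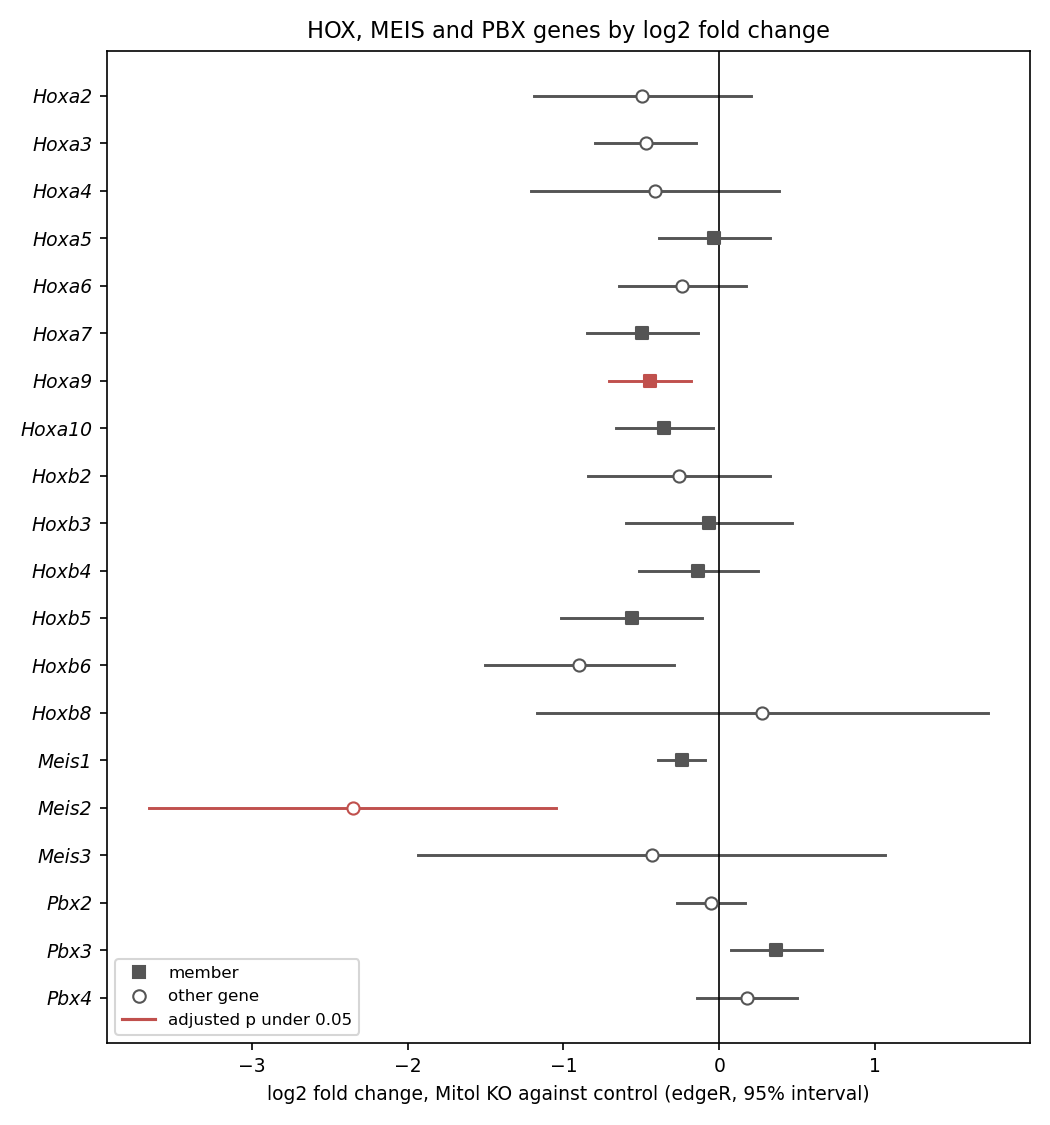
log2 fold changes, Mitol Δ/Δ (Mitol KO) against control, of HOX, MEIS and PBX genes. Points are edgeR estimates, lines 95% intervals, filled squares the 9 members, open circles other genes, and red an adjusted p under 0.05 (Hoxa9 and Meis2). Of the HOX genes drawn only Hoxb8 has a point right of 0, at 0.28.

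Most other HOX genes had values of the same sign. Of 38 HOX genes listed, 19 were in the table and 14 were tested, of which 13 had a log2 fold change below 0 (52.3% of all genes tested) and 1, Hoxb8, above 0 (0.28, 95% interval -1.17 to 1.72). These signs did not change with library totals or DESeq2 size factors in edgeR, but with 1 library left out 10 to 14 of the 14 were below 0. Without Mitol Δ/Δ replicate 4 Hoxb8 itself was below 0 (-0.39), and without Mitol Δ/Δ replicate 2 Hoxa5, Hoxb3 and Hoxb4 were above 0. The median over the 14 was -0.38, and 1 of them, Hoxa9, was called by edgeR, a share of 7.14% against 8.43% of all genes tested. DESeq2 called 4, namely Hoxa3, Hoxa7, Hoxa9 and Hoxb6, against 13.9% of all genes. Of the 7 tested HOX genes on the list that are no members, 6 were below 0 and edgeR called 0, with 2 at an unadjusted p under 0.05 (Hoxa3 and Hoxb6) and 2 called by DESeq2 (Hoxa3 and Hoxb6). All 8 tested HOXA genes on the list were below 0, and their summed normalized counts ran from 1904 to 2392 in Mitol Δ/Δ libraries and from 2642 to 2904 in control libraries, without overlap. Of 6 tested HOXB genes 5 were below 0. Sums over the 8 HOXB genes in the table, tested or not, overlapped, from 381 to 649.6 and from 570.3 to 655 in the same order. Of the HOXC cluster 3 genes were in the table, each at 0 to 20.7 normalized counts, too few to be tested.

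Hoxa3, a gene of the anterior part of the cluster, read 394, 471, 507 and 686 normalized counts in the Mitol Δ/Δ group and 704, 733, 646 and 735 in the control group. Only Mitol Δ/Δ replicate 4 reached the control range. Its log2 fold change was -0.47 (edgeR, adjusted p = 0.0686, and 0.00639 without Mitol Δ/Δ replicate 4), and DESeq2 gave an adjusted p of 0.0389. Hoxb6, next to Hoxb5, read 26.6, 26.0, 27.5 and 47.6 normalized counts in the Mitol Δ/Δ group and 54.1, 60.7, 51.8 and 67.4 in the control group. These did not overlap, and the log2 fold change was -0.90 (edgeR, adjusted p = 0.0651, and 0.0184 without Mitol Δ/Δ replicate 4; DESeq2, adjusted p = 0.0344). Hoxa2, Hoxa4, Hoxa6 and Hoxb2 had log2 fold changes from -0.49 to -0.24 and edgeR adjusted p-values from 0.354 to 0.582. Hoxb7 (1.80 to 28.2 normalized counts) and Hoxb9 (3.96 to 20.2) were too low to be tested.

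**Figure D3:**
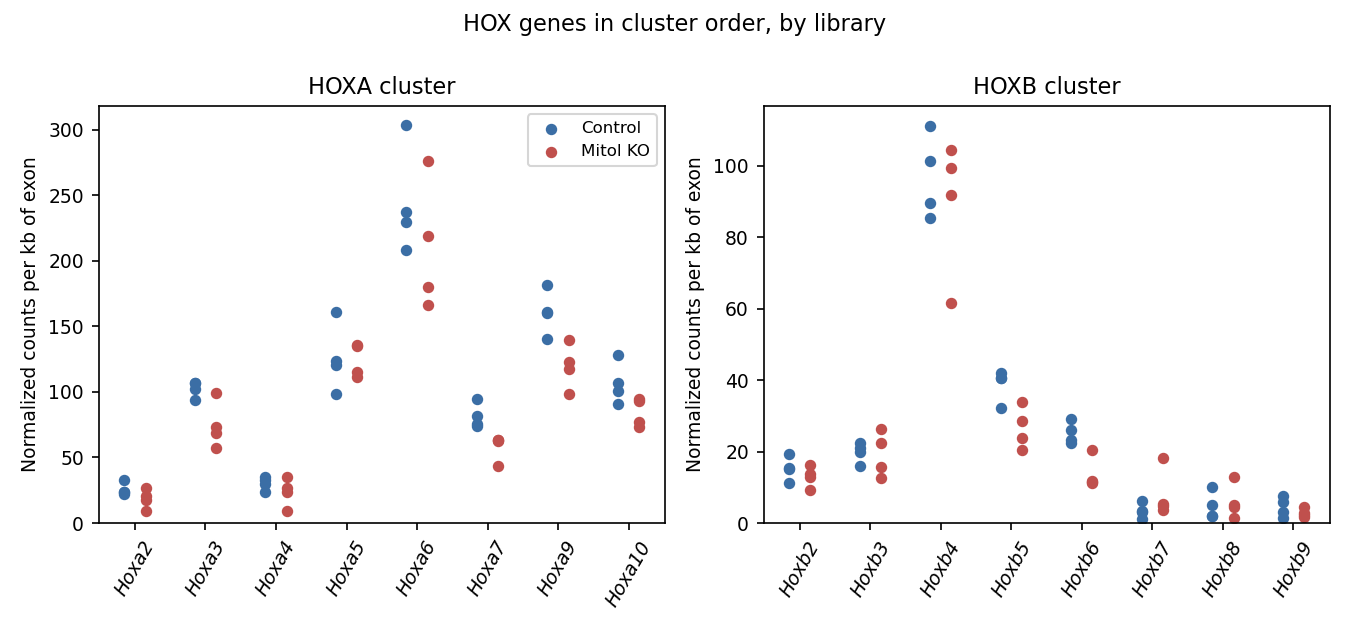
Normalized counts per kb of exon (linear axes from 0) of HOXA and HOXB genes in their order along each cluster. Each point is a library, blue for control and red for Mitol Δ/Δ (Mitol KO). Control points reach 303 per kb for Hoxa6, and Hoxa7 and Hoxa9 separate by group while Hoxa5 and Hoxb3 overlap.

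Transcripts other than HOX mRNAs are made in the clusters as well. Of 16 listed, 6 were in the table and 4 were tested, all with a log2 fold change below 0 (52.3% of all genes tested). The groups did not overlap for 2 of the 4, Hoxaas2 and Hoxb5os, against 15.4% of all genes tested. edgeR called 0 of the 4, against 8.43% of all genes. An unadjusted p under 0.05 was found for 2 (Hoxaas2 and Hoxb5os), against 26.4% of all genes. Against 13.9% of all genes, DESeq2 called 1, Hoxaas2. This antisense transcript, which lies between Hoxa2 and Hoxa3 and reaches into the latter, read 62.6, 82.1, 162 and 159.8 normalized counts in the Mitol Δ/Δ group and 202, 211, 223 and 184 in the control group. The groups did not overlap, and the log2 fold change was -0.83 (edgeR, adjusted p = 0.0791, and 0.0298 without Mitol Δ/Δ replicate 4; DESeq2, adjusted p = 0.0323). Hoxaas3, Hoxb3os and Hoxb5os had log2 fold changes of -0.44, -0.51 and -0.71 (edgeR, adjusted p = 0.206, 0.348 and 0.189). Without strand, reads cannot be assigned to one gene where these transcripts overlap HOX genes on the other strand. How such reads were counted is not given.

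Among the TALE cofactors, 9 of 17 listed genes were tested, and 1, Meis2, was called lower (edgeR), a share of 11.1% against 8.43% of all genes called and 3.75% called lower. Meis2, a paralog of Meis1, read 18.8, 5.20, 6.41 and 12.7 normalized counts in Mitol Δ/Δ libraries and 10.6, 86.2, 87.6 and 36.8 in control libraries. Control replicate 1 lay within the Mitol Δ/Δ range, so the groups overlapped. The log2 fold change was -2.35 (edgeR, 95% interval -3.66 to -1.05, adjusted p = 0.0347, 2 of 4 libraries below all controls), on raw counts of 5 to 93. The call was lost without Mitol Δ/Δ replicate 2 (adjusted p = 0.0916) or 3 (0.0917), and without control replicate 2 (0.102), 3 (0.0911) or 4 (0.0590). It was also lost with the replicate number as a block (0.0861) and with limma-voom (0.0946). Pbx2 and Pbx4 had log2 fold changes of -0.05 and 0.18 (edgeR, adjusted p = 0.783 and 0.478), and Meis3 had -0.43 (adjusted p = 0.734). Pbx2 was above 0 without control replicate 1 (0.030), and Meis3 without control replicate 4 (0.42).

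The regulators that keep HOX clusters active were compared next. Of 25 tested genes of the MLL, menin and MOZ complexes and their partners, 2 were called higher and 0 lower (edgeR), with 6 at an unadjusted p under 0.05 and 3 called by DESeq2, namely Hcfc1, Nup98 and Dpy30. These shares are near those of all genes (8.43% called and 26.4% at an unadjusted p under 0.05 in edgeR, 13.9% called in DESeq2). Hcfc1, a subunit of MLL-type methyltransferase complexes, had 6575 to 8659.6 normalized counts in Mitol Δ/Δ and 5039.7 to 6015 in control libraries, a log2 fold change of 0.39 (edgeR, adjusted p = 0.0446, higher in 4 of 4). Nup98, a nucleoporin whose fusion proteins activate HOXA genes in leukemia, had 2605 to 3082 and 2184 to 2497 (edgeR, log2 fold change 0.32, adjusted p = 0.0354, higher in 4 of 4). Both calls were lost with library totals in edgeR (adjusted p = 0.0611 for Hcfc1 and 0.0592 for Nup98). Of the 8 fits that each leave out 1 library, Hcfc1 kept its call only without Mitol Δ/Δ replicate 4, with adjusted p of 0.0511 to 0.122 in the rest. Nup98 kept its call only without Mitol Δ/Δ replicate 4 or control replicate 3, with 0.0518 to 0.105 in the rest. Kmt2a, which encodes MLL1, had a log2 fold change of -0.17 (edgeR, adjusted p = 0.300). Of the uncalled genes, Dpy30 and Kat6b had the largest log2 fold changes, 0.78 and -0.33 (edgeR, adjusted p = 0.0925 and 0.107). Dpy30 was called without control replicate 1 (0.0425) or Mitol Δ/Δ replicate 4 (0.0349), and Kat6b without Mitol Δ/Δ replicate 4 (0.0223).

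Polycomb proteins keep HOX clusters silent in cells that do not use them. Of 28 tested Polycomb genes, 1 was called higher and 3 lower (edgeR), where 8.43% of all genes were called. The balance was not kept, since DESeq2 called 4 higher and 3 lower, where it called 13.9% of all genes. Without Mitol Δ/Δ replicate 4, edgeR called 5 higher and 4 lower, where its calls over all genes rose from 1386 to 2501. Ezh1 and Ezh2 are alternative methyltransferases of Polycomb complex PRC2, Ezh2 in dividing and Ezh1 in resting cells. Ezh2 stood at 1271, 1256, 958 and 792 normalized counts in Mitol Δ/Δ libraries and at 671, 701, 718 and 638 in control libraries. Every Mitol Δ/Δ library was above every control library, with a log2 fold change of 0.63 (edgeR, adjusted p = 0.0209). Ezh1 had 608, 635, 722 and 918 in Mitol Δ/Δ libraries and 855, 1072, 998 and 1288 in control libraries. Only Mitol Δ/Δ replicate 4 reached the control range, and the log2 fold change was -0.57 (edgeR, adjusted p = 0.0412). Cbx7, a reader of the Polycomb mark that supports HSC self-renewal, had 522 to 876 and 893 to 1537 in the same order (edgeR, log2 fold change -0.69, adjusted p = 0.0394, lower in 4 of 4). Cbx6, a related reader, had 2601 to 2997 and 3411 to 3596 (edgeR, log2 fold change -0.35, adjusted p = 0.0202, lower in 4 of 4).

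Leaving out 1 library at a time, Ezh2 was no longer called without Mitol Δ/Δ replicate 1 or 2 or control replicate 2 or 4 (edgeR, adjusted p = 0.0573 to 0.0618). Cbx6 was no longer called without Mitol Δ/Δ replicate 1, 2 or 3 or control replicate 2 (0.0553 to 0.0608). Ezh1 (0.0726 to 0.116) and Cbx7 (0.0661 to 0.0999) were no longer called without Mitol Δ/Δ replicate 1, 2 or 3 or control replicate 2, 3 or 4. Phf19 and Rbbp7, both subunits of PRC2, had the largest log2 fold changes among uncalled Polycomb genes, 0.57 and 0.51 (edgeR, adjusted p = 0.0934 and 0.0567), and were called without Mitol Δ/Δ replicate 4 (0.0164 and 0.0050).

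**Figure D4:**
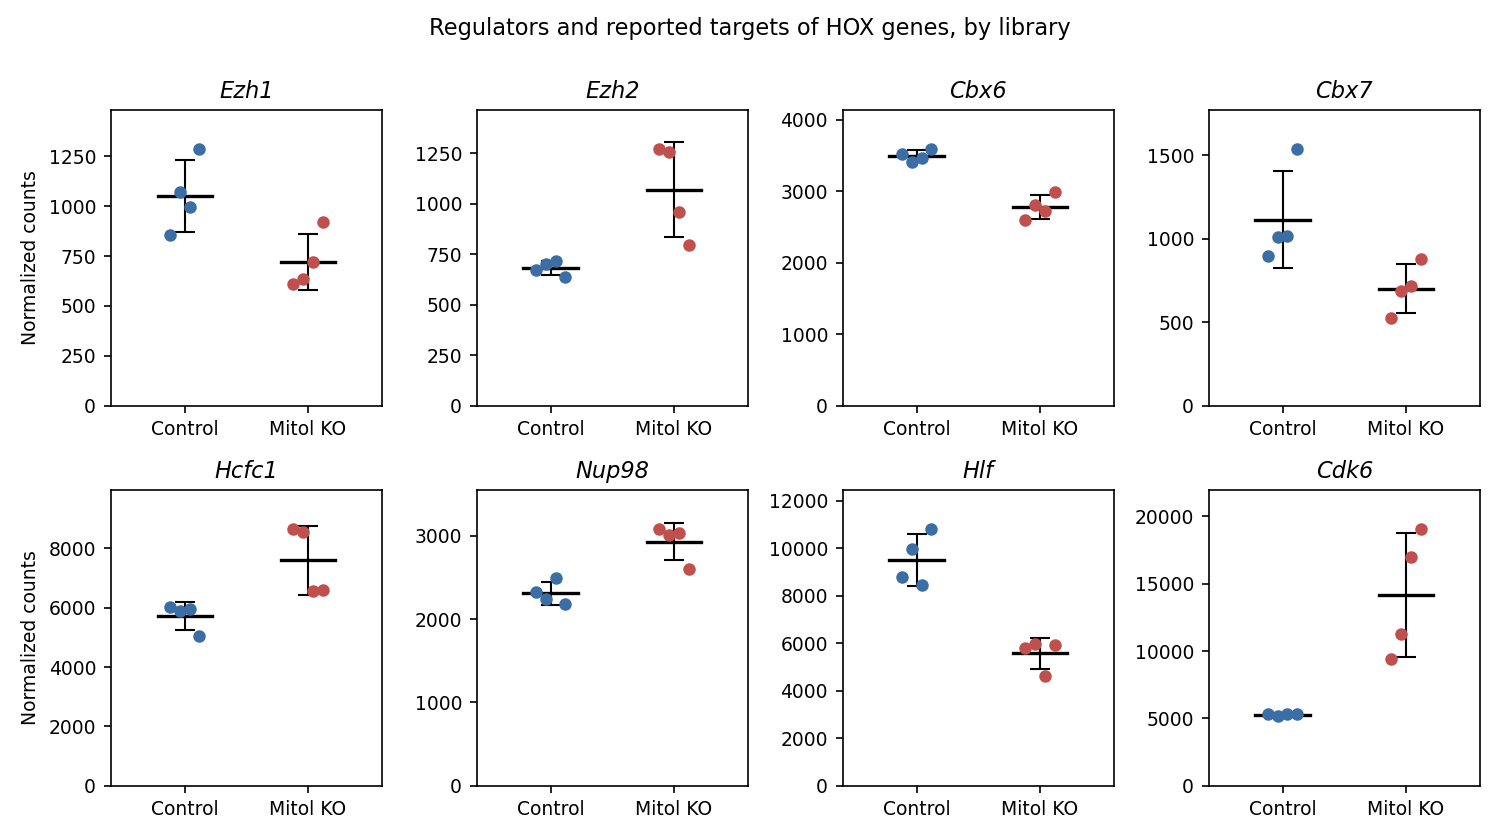
Normalized counts (linear axes from 0) of the Polycomb genes Ezh1, Ezh2, Cbx6 and Cbx7, the activators Hcfc1 and Nup98, and the reported targets Hlf and Cdk6. Points are libraries, horizontal bars means and whiskers SD of 4 libraries. All but Ezh1 separate by group, and Cdk6 spreads from 9416 to 19069 in Mitol Δ/Δ (Mitol KO) libraries.

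Genes reported as targets of HOXA9 and MEIS1 did not move in one direction. The list of 20, written from general knowledge, had 10 genes above and 10 below 0, a median log2 fold change of -0.05, and 1 called higher and 3 lower (edgeR), where 8.43% of all genes were called. Hlf, a transcription factor of HSC identity, stood at 5807, 5968, 4609 and 5910.0 normalized counts in Mitol Δ/Δ libraries and at 8803, 9949, 8459 and 10809.5 in control libraries. The groups did not overlap, and the log2 fold change was -0.79 (edgeR, adjusted p = 0.00381, called in all 8 fits without 1 library). Cdk6, a kinase that drives HSCs out of quiescence, stood at 9416, 11244, 16972 and 19069 normalized counts in Mitol Δ/Δ libraries. In control libraries it had 5302, 5177, 5291 and 5301, so that control libraries were nearly equal while Mitol Δ/Δ libraries ranged widely above them. Its log2 fold change was 1.41 (edgeR, adjusted p = 0.00381, called in all 8 such fits). Pf4, a platelet chemokine also counted as a megakaryocyte marker, had 10.98 to 17.2 and 26.4 to 62.0 (edgeR, log2 fold change -1.69, adjusted p = 0.0202, lower in 4 of 4), and was not called without Mitol Δ/Δ replicate 2 (0.0549) or 3 (0.0593) or control replicate 4 (0.0641). Lmo2, a bridging factor of stem cell transcription complexes, had 6198 to 6944 and 7451 to 9825 (edgeR, log2 fold change -0.34, adjusted p = 0.0496, lower in 4 of 4). Its call was kept only without Mitol Δ/Δ replicate 4 and had an adjusted p of 0.0547 to 0.140 without any other library, and it was lost with DESeq2 size factors in edgeR (0.0592) or without the expression filter (0.0688). Among uncalled genes Trib2 (-1.31) and Flt3 (0.45) had the largest log2 fold changes (edgeR, adjusted p = 0.211 and 0.337). Without control replicate 4 that of Trib2 was -0.31, and without Mitol Δ/Δ replicate 4 that of Flt3 was 0.14.

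Over the 8 libraries, the 36 pairs of members had a median Pearson r of 0.30 on log2 CPM (counts scaled by library size), with 27 pairs above 0. With each group's mean removed the median was 0.31, with 26 pairs above 0. Hoxb5 and Meis1 (r = 0.85, 0.50 within groups) and Hoxb3 and Hoxb4 (r = 0.81 and 0.81) had the highest values, and Meis1 and Pbx3 (r = -0.88, -0.56 within groups) the lowest. Within groups the highest value was that of Hoxa9 and Pbx3 (0.91, against -0.36 over all libraries). Among 12004 other genes of at least 50 mean normalized counts, Hoxa9 was most like Rgs18 (r = 0.98), Vezf1 (0.98) and Pkd2l2 (0.97). Hoxb5 was most like Trim30d (0.997), Cyp2t4 (0.989) and Hip1r (0.987). Meis1 was most like X9430091E24Rik (0.988), Star (0.983) and BC064078 (0.975). Picked as the highest of so many genes over 8 libraries that share depth and group, these values are a description.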

How the data were processed

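RNA of 100 sorted HSCs per library was converted to cDNA, and libraries were made with Nextera XT. The authors aligned single-end reads with STAR to mm39, merged alignments with SAMtools, obtained gene counts with Subread and deposited these counts without normalization. The annotation and strand setting are not given in the sources used here. Of 23094 rows, 1029 without a symbol (0.335% to 0.467% of a library's counts) were left out. Every row had at least 11 counts in total.

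Counts were tested in edgeR (version 4.0.16, quasi-likelihood test, TMM, default expression filter, group as sole term, Benjamini-Hochberg adjustment over 16444 genes, threshold 0.05) in R 4.3.3. Normalized counts are counts divided by DESeq2 (version 1.42.0) size factors. Exact permutation tests used log2(normalized count + 1). Alternatives were DESeq2 (the study's tool), limma-voom (limma 3.58.1), DESeq2 size factors or library totals in edgeR, no filter, the replicate number as a block, and each library left out in turn. Likeness used log2 CPM with a prior count of 2. Positions and lengths came from GENCODE vM39 (GRCm39). Tested on simulated counts of 16137 genes, edgeR recovered 82% of genes changed by 1 log2 unit and 97% of those changed by 2, with 8.21% false calls. DESeq2 had 14.7% false calls in the same simulation. The changed genes were drawn only from genes above a minimum mean count, so recovery at lower counts was not simulated. Changes smaller than 1 log2 unit, such as those fitted for the members, were not simulated either. Replicates differed beyond counting noise (chi-square per degree of freedom 5.28 to 21.2). Intervals and counts rest on reads without molecular identifiers.

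The members and gene lists were chosen with earlier results of these data known. Named were the members, other HOX, MEIS and PBX genes, called genes of the other lists with the 2 largest uncalled log2 fold changes of activators, Polycomb genes and targets, the 3 genes most like Hoxa9, Hoxb5 and Meis1, and Marchf5. Kmt2a and the markers Prtn3, Klf1, Epor, Slamf1, Ly6a and Esam were added after their values were seen. Of the HOX, TALE and HSC marker lists, 3 genes are not reported here and were left out of the counts and sums over these lists.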

Additional observations from a re-analysis of the deposited data

Results flagged for a closer look

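Single libraries stood apart from the other 3 of their group, by a gap to the nearest of them beyond Dixon's 95% critical share of the group's range, in 13 of 134 groups of 4 libraries checked. Chance flags about 1 in 20 groups. Among the members these were Hoxa7 in Mitol Δ/Δ replicate 2, at 126 normalized counts against 181 to 183 in the others, and Hoxb5 in control replicate 1, at 89.7 against 113 to 117. Both values lie on the low side.

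Among other HOX and PBX genes, Hoxa2 was high in control replicate 2 (85.1 normalized counts), Hoxb6 in Mitol Δ/Δ replicate 4 (47.6) and Pbx2 in control replicate 1 (748). Of the regulators, Hcfc1 was low in control replicate 4 (5039.7) and Nup98 in Mitol Δ/Δ replicate 4 (2605). Of the reported targets, Cdk6 was low in control replicate 2 (5177), Hlf was low in Mitol Δ/Δ replicate 3 (4609) and Trib2 was high in control replicate 4 (145). Gata2 was high in Mitol Δ/Δ replicate 4 (4318), Bub1 in control replicate 3 (212), and Pkd2l2 was low in control replicate 1 (174). No library held more than 3 of these 13 values among the genes checked.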

How the results depend on the processing

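Each group had 4 libraries of 100 cells. Members called numbered 1 in the fit reported, 2 with library totals or limma-voom, 3 with DESeq2, 0 without the expression filter, and 0 to 2 with 1 library left out. HOX genes called (1) numbered 2 with library totals, limma-voom or the replicate block, 4 with DESeq2, 0 without the filter, and 0 to 3 with 1 library left out. TALE genes called (1) numbered 2 with library totals or DESeq2, 0 with the replicate block and 0 to 3 with 1 library left out. Activators called (2) numbered 0 with library totals, 4 with the replicate block and 0 to 6 with 1 library left out. Polycomb genes called (4) numbered 7 with DESeq2 and 0 to 9, and reported targets called (4) numbered 2 to 5, with 1 library left out. Over all genes, 1386 calls became 2315 with DESeq2 and 359 to 2501 with 1 library left out, the most without Mitol Δ/Δ replicate 4. Left-out libraries turned the sign of Hoxa5 (-0.13 to 0.11), Hoxb3 (-0.23 to 0.10) and Hoxb4 (-0.20 to 0.012), and among other HOX and TALE genes that of Hoxb8 (-0.39 to 0.92), Meis3 (-1.04 to 0.42) and Pbx2 (-0.079 to 0.030), none of them called. The mean difference of Hoxa5, 0.0012 on the log2 scale, was -2.51 in normalized counts. The cause of these changes was not tested. Replicate numbers did not pair libraries (correlations of same-numbered libraries -0.070 to 0.080, and 2 of 4 Mitol Δ/Δ libraries closest to their own number). The replicate block gave 1652 calls and 1 member, Hoxa9. The median log2 fold change of the members stayed between -0.30 and -0.21 in all fits run. A choice made after seeing the data, scaling by library totals, left 4 members without overlap, with Hoxa10 in place of Pbx3.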
